A study of Mus musculus with 12 samples.

Results

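The phospholipase A2 genes described here were Pla2g4a, Pla2g4e, Pla2g3, Pla2g5, Pla2g6, Pla2g7, Pla2g12a, Pla2g15 and Pla2g16. These 9 genes were picked by name for their enzyme class, with earlier results of these data known. All 9 were found by Ensembl identifier among the 50563 genes of the count table, and all 9 stayed among 15688 genes after edgeR's filterByExpr removed genes with few counts. RNA-Seq libraries were made from the cortex of 12 aged E4FAD mice, 1 library per mouse. Every mouse of both groups had the genotype APOE4+/+, 5FAD-/+, so human APOE4 replaced the mouse gene in both groups and all mice carried 1 dose of the familial Alzheimer's disease transgenes, which are driven by the neuronal Thy1 promoter. The CTRL group held 7 mice given vehicle, of which 2 were 12 months and 5 were 14 months old. The DPAn-6 group held 5 mice given the n-6 docosapentaenoic acid by oral gavage at 700 mg/kg daily for 3 weeks, of which 2 were 12 months and 3 were 14 months old. CTRL held 4 females and 3 males and DPAn-6 held 3 females and 2 males (the sex of each mouse was not in the labels). No mice without the transgenes are among these libraries, so the data do not show what amyloid or APOE4 does to these genes.

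Phospholipases A2 cut the fatty acid from the middle position of a membrane phospholipid, which frees the acid and leaves a lysophospholipid. The freed acid, often arachidonic acid, feeds the cyclooxygenase, lipoxygenase and epoxygenase enzymes, and acyltransferases put fatty acids back on the lysophospholipid. The family is grouped by where the enzymes work: cytosolic enzymes that need calcium, a calcium-independent enzyme, small secreted enzymes, a lysosomal enzyme, and hydrolases that act on platelet-activating factor. In brain they are known for membrane turnover and for supplying the precursors of lipid mediators.

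Total counts on genes ranged from 15208803 to 26520251 per library (median 17831179). Expression is given as log2 CPM, which is the log2 of 1000000 × (count + 0.5) over the library total, and intervals and p-values cover the spread between these mice. Libraries of 1 group differed from each other by more than sampling noise, with a chi-square of 4.92 to 106.0 per gene over the 31 pairs, so each was counted as 1 replicate. The largest values, 58.5 to 106.0, all came from pairs with CTRL replicate 3, and no pair without it exceeded 38.8. All 7 excitatory neuron markers of a list for cortex were detected in every group, with a summed level of 2169 to 2798 CPM in CTRL and 2460 to 2634 CPM in DPAn-6. Markers of other cell types differed between the groups. The 14 microglia markers summed to 1348 to 2029 CPM in CTRL and 909 to 1337 CPM in DPAn-6, and of these Csf1r, Tmem119, C1qc and C1qb fell by edgeR's adjusted test. Myh11 of the 6 mural cell markers and Col1a2, Lum and Igf2 of the 7 meningeal fibroblast markers also fell. None of the other 9 lists had a gene that passed. The 7 choroid plexus markers summed to between 14.0 and 1692 CPM in CTRL and between 9.47 and 26.2 CPM in DPAn-6, and none of them was at 0 in all libraries. The choroid plexus transcript Ttr reached 10.58, 9.88 and 7.38 log2 CPM in CTRL replicates 2, 5 and 3. In bulk tissue, fewer cells of a type and less RNA per cell cannot be told apart.

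Pla2g7 was by far the most abundant of the 9 transcripts and Pla2g4a the least. Levels of different genes were compared as CPM per kilobase of exon, with the summed exon length of each gene in the GENCODE M21 annotation of GRCm38. Over the 12 mice, Pla2g7 had a level of 46.1 ± 4.81 (SD, n = 12). It encodes the secreted hydrolase of platelet-activating factor and oxidised phospholipids. Pla2g15, the lysosomal enzyme, followed at 9.76 ± 1.79 (SD, n = 12), and Pla2g16, the adipose enzyme of the HRASLS class, at 6.80 ± 0.71 (SD, n = 12). Pla2g6, the calcium-independent enzyme whose loss causes an inherited neuroaxonal dystrophy, had 4.14 ± 0.42 (SD, n = 12), and the secreted enzyme Pla2g12a had 3.79 ± 0.48 (SD, n = 12). The remaining 4 members were low. Pla2g4e had 1.64 ± 0.42 (SD, n = 12), Pla2g5 had 1.20 ± 0.24 (SD, n = 12), Pla2g3 had 0.72 ± 0.18 (SD, n = 12) and Pla2g4a had 0.60 ± 0.07 (SD, n = 12).

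In this order, the ranges of the neighbours did not overlap between Pla2g7 and Pla2g15, between Pla2g16 and Pla2g6, and between Pla2g12a and Pla2g4e. The other 5 neighbouring pairs overlapped. Pla2g15 was above Pla2g16 in 11 of 12 mice, Pla2g6 above Pla2g12a in 10, Pla2g4e above Pla2g5 in 11 and Pla2g5 above Pla2g3 in 11. Pla2g3 was above Pla2g4a in only 5 of 12 mice, so the order of these 2 is not set by the data. With the longest annotated transcript as length, Pla2g16 came to 12.3 and Pla2g15 to 10.9, the reverse of their order by exon length.

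**Figure D1:**
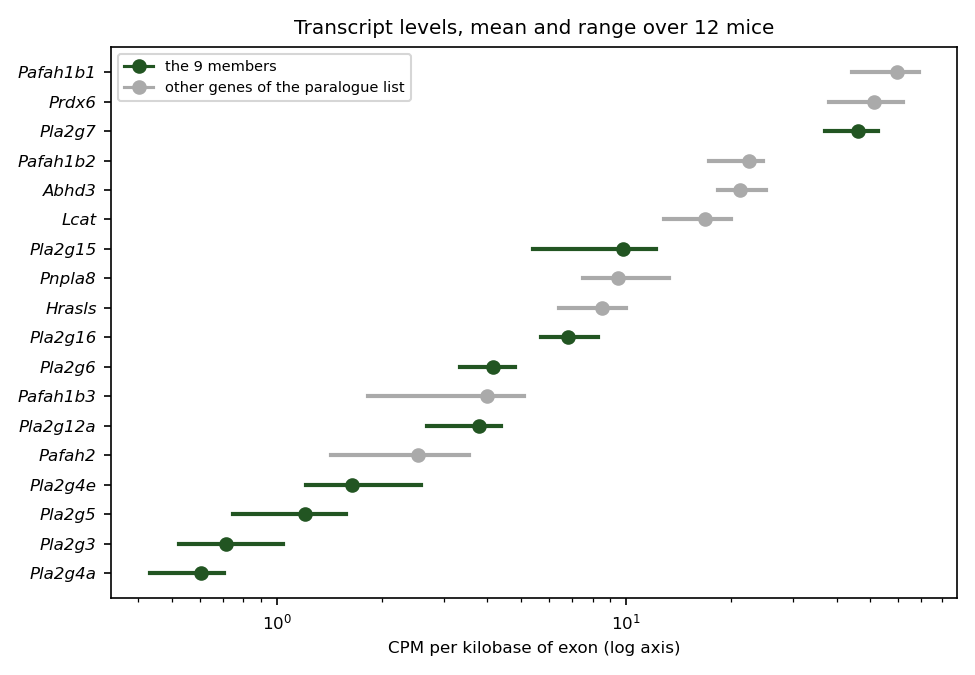
Transcript levels of the 9 phospholipase A2 members and of the other tested genes of the paralogue list, in CPM per kilobase of exon on a log axis. Points are means over 12 mice and lines run from the lowest to the highest mouse: Pla2g7 lies at 46.1, and Pla2g4e, Pla2g5, Pla2g3 and Pla2g4a all lie below 2.6 in every mouse.

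Most other genes of the same name were near or at 0 in this cortex. Of 12 further Pla2g genes on the paralogue list, none passed the filter, and the highest count of any of them in any library was 17, for Pla2g4b. Pla2g1b, the pancreatic enzyme, and Pla2g2a, which the annotation lists as a polymorphic pseudogene, had 0 counts in all 12 libraries. A count of 0 allows up to 3 counts per library, which limits counting error only. The secreted enzymes Pla2g2d and Pla2g2c had 88 and 31 counts summed over the 12 libraries. Genes of the list outside the Pla2g naming ranged widely. Hrasls5 had 3 counts summed over the 12 libraries and was not tested, and Pafah2 had a level of 2.52 ± 0.55 (SD, n = 12) CPM per kilobase. The highest of them included Pafah1b1, a subunit of the brain platelet-activating factor acetylhydrolase, at 59.6 ± 7.08 per kilobase and Prdx6, a peroxiredoxin with phospholipase A2 activity, at 51.3 ± 6.58 (SD, n = 12 for both).

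None of the 9 members passed an adjusted p below 0.05 for DPAn-6 against CTRL by edgeR's quasi-likelihood test, against 1.55% of all genes tested, and the count was also 0 by DESeq2 and by limma-voom. At an unadjusted p below 0.05 there was 1 of 9 by each of the 3 tools, Pla2g4e, against 14.5% of all genes tested by edgeR. The groups overlapped in all 9 members, and over all genes tested the CPM of the groups did not overlap in 3.23%. The log2 fold changes of the members ran from −0.40 to 0.12, 5 above and 4 below 0, with a median of 0.00, and the median over all genes tested was 0.00.

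Positions are those of GRCm38. Pla2g4e (ENSMUSG00000050211, chromosome 2, 120166412 to 120245335, minus strand) encodes a cytosolic, calcium-dependent enzyme that also transfers acyl chains to phosphatidylethanolamine, the first step towards N-acylethanolamines such as anandamide. In CTRL mice its lowest, median and highest values were 3.23, 3.61 and 4.17 log2 CPM, and in the 5 DPAn-6 mice it was 3.22, 3.35, 3.50, 3.08 and 3.24. Each of the 5 DPAn-6 values was under the CTRL mean, and 4 of the 7 CTRL mice lay above every DPAn-6 mouse, while CTRL replicates 1, 3 and 7 lay within the DPAn-6 range. The means were 3.62 ± 0.37 (SD, n = 7) and 3.28 ± 0.16 (SD, n = 5). The log2 fold change was −0.40 (standard error 0.16, 95% interval −0.74 to −0.06) with an unadjusted p of 0.0240 and an adjusted p of 0.254 by edgeR. The exact permutation test of the means, two-sided over the 792 ways to divide the mice into 7 and 5, gave p = 0.0783. The difference passed neither the adjusted test nor the permutation test. With Ttr as covariate the difference was −0.17 (edgeR unadjusted p = 0.401), and without the 3 CTRL libraries with most Ttr it was −0.29 (edgeR unadjusted p = 0.0451).

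The other cytosolic member, Pla2g4a (ENSMUSG00000056220, chromosome 1, 149829618 to 149961290, minus strand), encodes the enzyme that releases arachidonic acid from membranes after a rise in calcium. It had 43 to 100 counts per library. Its lowest, median and highest CTRL values were 1.48, 2.04 and 2.18 log2 CPM, and the DPAn-6 mice had 2.07, 1.90, 1.96, 2.06 and 1.92. The DPAn-6 values lay inside the CTRL range. The difference was 0.02 in log2 units (standard error 0.13), and its 95% interval of −0.26 to 0.30 covers folds from 0.834 to 1.23 (edgeR unadjusted p = 0.894).

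Pla2g3 (ENSMUSG00000034579, chromosome 11, 3488284 to 3499350, plus strand) encodes a secreted enzyme. Its lowest, median and highest CTRL values were 1.31, 1.74 and 2.29 log2 CPM, and the DPAn-6 mice had 1.62, 1.32, 1.91, 1.61 and 1.43. CTRL replicates 2, 5 and 6 lay above every DPAn-6 mouse, CTRL replicate 1 was the lowest of the 12, just under DPAn-6 replicate 2, and the other 3 CTRL mice lay among the DPAn-6 mice. The log2 fold change was −0.30 (standard error 0.19, edgeR unadjusted p = 0.122), with a 95% interval of −0.70 to 0.09. It was 0.00 with Ttr as covariate, which is itself tied to the treatment. Pla2g3 overlaps Inpp5j on the opposite strand, which had 678 to 1793 counts per library against 42 to 92 for Pla2g3. Whether reads were counted by strand is not given in the sources used here. Reads of these 2 genes may therefore not be fully told apart.

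Pla2g5 (ENSMUSG00000041193, chromosome 4, 138799244 to 138863482, minus strand) encodes another secreted enzyme. It had CTRL values of 1.13, 1.89 and 2.20 log2 CPM as lowest, median and highest, and DPAn-6 values of 1.85, 2.08, 1.40, 1.48 and 1.79. The lowest value, 1.13, was CTRL replicate 6. The log2 fold change was −0.13 (standard error 0.18, 95% interval −0.51 to 0.25, edgeR unadjusted p = 0.477). Pla2g12a (ENSMUSG00000027999, chromosome 3, 129878606 to 129895825, plus strand), a further secreted enzyme, had CTRL values of 3.31, 3.85 and 3.95 log2 CPM and DPAn-6 values of 4.0, 3.77, 3.73, 3.72 and 4.01. DPAn-6 replicates 1 and 5 were above every CTRL mouse, and CTRL replicate 3 was the lowest of the 12. Its log2 fold change was 0.06 (standard error 0.11, 95% interval −0.17 to 0.29, edgeR unadjusted p = 0.580).

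The calcium-independent Pla2g6 (ENSMUSG00000042632, chromosome 15, 79286228 to 79328390, minus strand) showed the smallest difference of the 9. Its lowest, median and highest CTRL values were 4.18, 4.47 and 4.70 log2 CPM, and DPAn-6 mice had 4.64, 4.42, 4.42, 4.42 and 4.63. The log2 fold change was 0.00 (standard error 0.09), and the 95% interval of −0.19 to 0.19 holds folds between 0.877 and 1.14 (edgeR unadjusted p = 0.981). The lysosomal Pla2g15 (ENSMUSG00000031903, chromosome 8, 106150399 to 106164715, plus strand) had CTRL values of 4.03, 4.90 and 5.20 log2 CPM and DPAn-6 values of 4.94, 5.00, 4.74, 4.87 and 5.08. The spread was wider in CTRL than in DPAn-6 mice, and CTRL replicate 3 stood below all other mice. The difference was 0.07 in log2 units (standard error 0.15, 95% interval −0.25 to 0.38, edgeR unadjusted p = 0.659).

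Pla2g7 (ENSMUSG00000023913, chromosome 17, 43568098 to 43612201, plus strand) had CTRL values of 6.75, 7.04 and 7.18 log2 CPM as lowest, median and highest, and DPAn-6 values of 7.18, 7.12, 6.98, 7.20 and 7.25. DPAn-6 replicates 4 and 5 were above every CTRL mouse, and 4 of 5 DPAn-6 mice were above the CTRL mean of 6.99 ± 0.16 (SD, n = 7). By edgeR, the log2 fold change was 0.12 (standard error 0.09, 95% interval −0.06 to 0.31, edgeR unadjusted p = 0.170, exact permutation p = 0.102). Without CTRL replicate 3, the edgeR unadjusted p was 0.0348 and the adjusted p 0.181. Pla2g16 (ENSMUSG00000060675, chromosome 19, 7557459 to 7588545, plus strand) encodes an enzyme that also acts as an acyltransferase. It had CTRL values of 5.34, 5.45 and 5.73 log2 CPM and DPAn-6 values of 5.48, 5.19, 5.35, 5.40 and 5.41. The CTRL mean, 5.49 ± 0.15 (SD, n = 7), was above each of the 5 DPAn-6 values. The log2 fold change was −0.15 (standard error 0.08, 95% interval −0.33 to 0.03, edgeR unadjusted p = 0.0974, exact permutation p = 0.188).

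**Figure D2:**
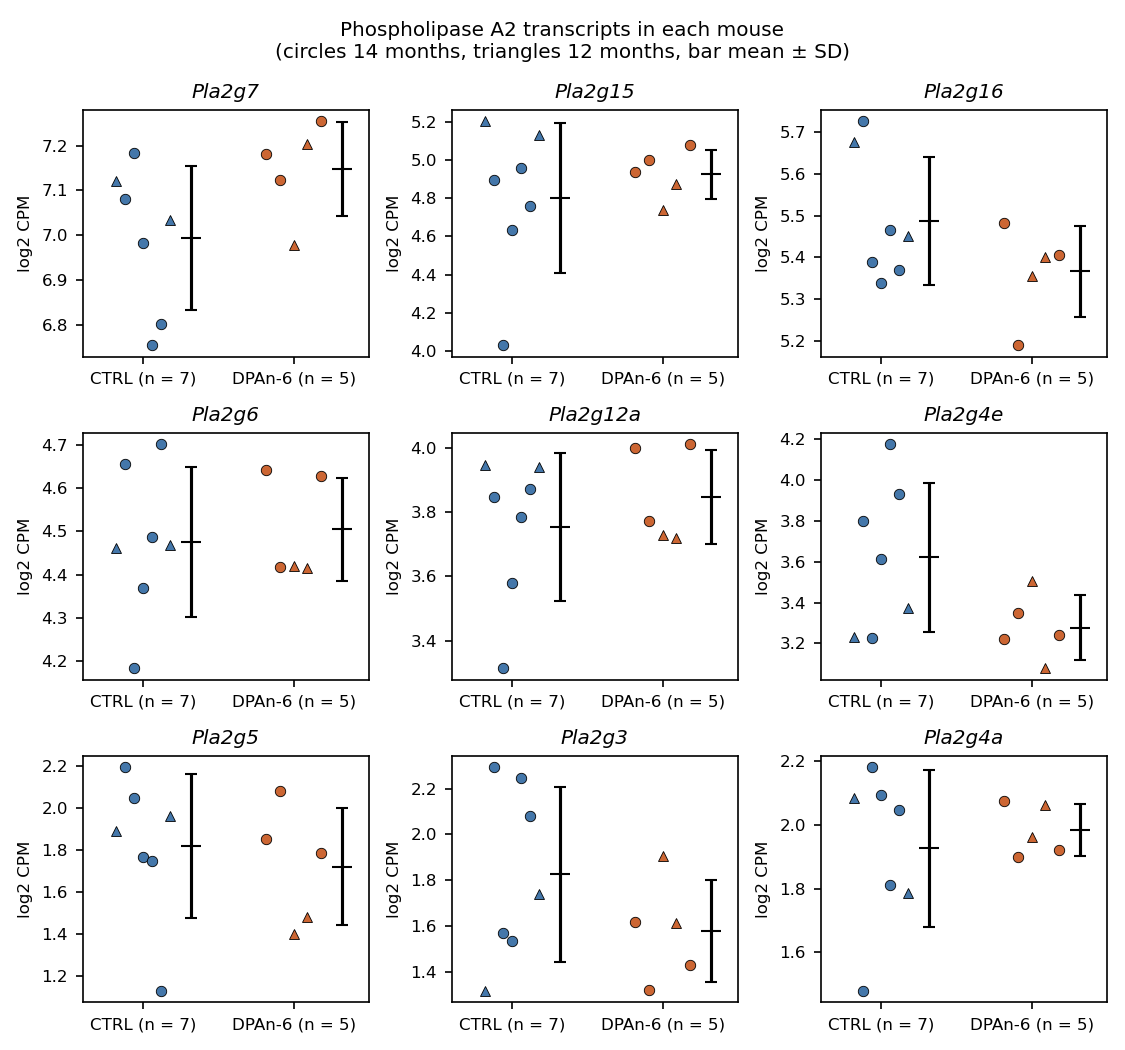
Expression of each member in log2 CPM, with 1 point per mouse, CTRL (n = 7) in blue and DPAn-6 (n = 5) in orange, circles for 14 months, triangles for 12 months, and bars for the mean ± SD. The groups overlap in every panel, and for Pla2g4e 4 CTRL mice lie above the highest DPAn-6 mouse at 3.50.

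In the 8 mice of 14 months (5 CTRL and 3 DPAn-6), 2 of 9 members had an unadjusted p below 0.05 by edgeR, against 8.96% of all genes tested, and 0 passed the adjusted test. These were Pla2g4e with a log2 fold change of −0.53 (standard error 0.18, unadjusted p = 0.0149, adjusted p = 0.418) and Pla2g3 with −0.54 (standard error 0.22, unadjusted p = 0.0308, adjusted p = 0.494). The 14-month CTRL mice include the 3 libraries with most Ttr, and at this age all 3 DPAn-6 libraries but only 2 of 5 CTRL libraries were high in Xist, the transcript of the silenced X chromosome, so the groups also differed in sex. For the difference between 14 and 12 months over both groups, no member had an unadjusted p below 0.05 by edgeR, against 1.78% of all genes tested. For 2 of 9 members, the interaction of DPAn-6 with age had an unadjusted p below 0.05 by edgeR, against 4.26% of all genes tested. Pla2g15 had a difference of 0.65 (standard error 0.26, unadjusted p = 0.0294) between the log2 fold changes at 14 and 12 months, and Pla2g3 had −0.78 (standard error 0.36, unadjusted p = 0.0497). By limma-voom the unadjusted p was 0.0248 for Pla2g15 and 0.0566 for Pla2g3. Neither passed adjustment, with an adjusted p of 0.905 for both.

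**Figure D3:**
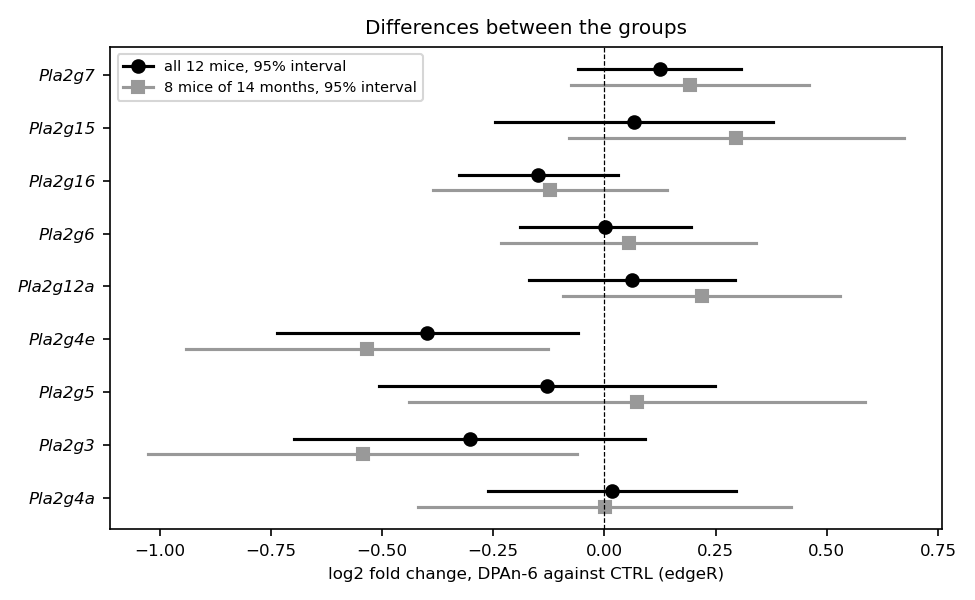
Log2 fold change of each member, DPAn-6 against CTRL, by edgeR, in all 12 mice (black circles) and in the 8 mice of 14 months (grey squares), with 95% intervals. Of the 12-mouse intervals, only that of Pla2g4e, −0.74 to −0.06, lies wholly on 1 side of 0, and in the 14-month mice those of Pla2g4e and Pla2g3 do.

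The age comparison is tied to sex in these libraries. Xist was at 9.15 to 10.57 log2 CPM in 7 libraries (CTRL replicates 1, 2, 3 and 7 and DPAn-6 replicates 1, 2 and 5) and at 0.46 to 2.07 in the other 5, which matches the numbers of females and males in each group. At 12 months, both CTRL libraries were high in Xist and both DPAn-6 libraries were low. The difference between the groups at 12 months, and with it the interaction with age, therefore cannot be told apart from sex. With Xist as a further term, the interaction had an edgeR unadjusted p of 0.0171 for Pla2g15 and 0.172 for Pla2g3. For Pla2g4e it was −0.55 (edgeR unadjusted p = 0.0909) without Xist and −0.05 (edgeR unadjusted p = 0.902) with it. Among the groups split by age, only the 14-month CTRL mice held libraries both high and low in Xist, with 2 of 5 high. The Xist term in this model therefore rested mainly on these 5 mice, which include CTRL replicate 3. The values with Xist cannot be read as an adjustment for sex alone.

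Pla2g5 lay higher in the libraries with high Xist, a relation that did not pass adjustment over all genes. All 7 libraries high in Xist had 1.79 to 2.20 log2 CPM of Pla2g5, and all 5 low in Xist had 1.13 to 1.77, with no overlap. For every other member the ranges of the high and low libraries overlapped. The share of all genes tested with no overlap in this split was not determined. Gfap, an intermediate filament of astrocytes, was also split with no overlap. It had 10.08 to 10.56 log2 CPM in the 7 libraries and 9.48 to 9.77 in the 5. Gfap is 1 of the 10 astrocyte markers, and the values of the others in this split are not given here. With the mean of the 10 astrocyte markers, Pla2g5 had r = 0.64 (permutation p = 0.0358, adjusted p = 0.337) and rho = 0.78 (permutation p = 0.00528, adjusted p = 0.190) after the groups were centred. It also had r = −0.69 with the inhibitory neuron markers (permutation p = 0.0215, adjusted p = 0.291). With the red cell markers r was 0.60 (permutation p = 0.0305, adjusted p = 0.337). The part of these markers in the relation of Pla2g5 with Xist was not tested. With the groups in the model, the slope was 0.06 log2 units of Pla2g5 per log2 unit of Xist (standard error 0.02, edgeR unadjusted p = 0.00233, adjusted p = 0.569). Pla2g7, with a slope of 0.02 (standard error 0.01, edgeR unadjusted p = 0.0126), and Pla2g4e, with a slope of −0.04 (standard error 0.02, edgeR unadjusted p = 0.0361), were the other members below 0.05. The 3 of 9 members stand against 5.41% of all genes tested, and none of the 3 passed adjustment. With DESeq2 and limma-voom the unadjusted p of Pla2g5 was 0.00143 and 0.00220, and the adjusted p 0.229 and 0.560.

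**Figure D4:**
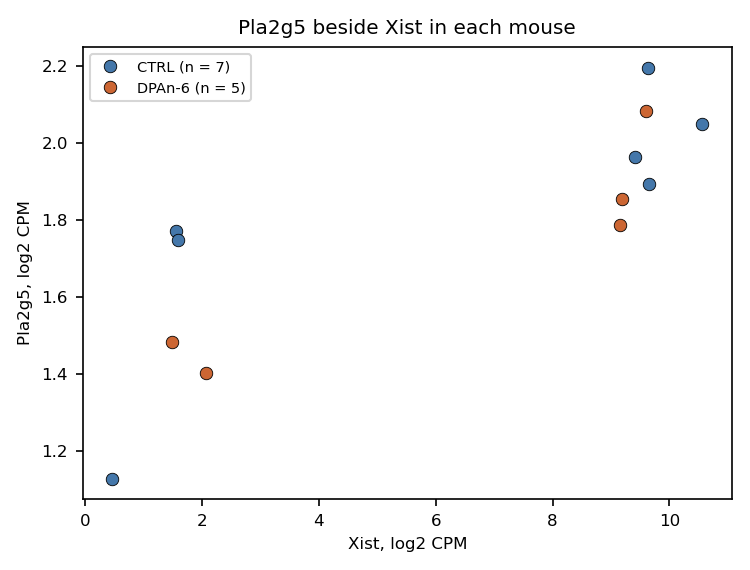
Pla2g5 against Xist in each mouse, both in log2 CPM, with CTRL (n = 7) in blue and DPAn-6 (n = 5) in orange. The 7 libraries with Xist above 9 have Pla2g5 at 1.79 to 2.20, and the 5 with Xist below 2.1 have it at 1.13 to 1.77.

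Some members varied together from mouse to mouse. After each group was centred on its mean, 36 pairs of members were compared over the 12 mice, and 2 pairs had a permutation p below 0.05 after adjustment over the 36 for Pearson's r, while none had for Spearman's rho. Pla2g12a and Pla2g15 varied in the same direction, with r = 0.87 (permutation p = 0.00104, adjusted p = 0.0374) and rho = 0.83 (permutation p = 0.00241, adjusted p = 0.0868). Without CTRL replicates 3 and 4, the mice farthest from the median of Pla2g12a, r was 0.66, and in the 8 mice of 14 months it was 0.83. Pla2g4e and Pla2g7 ran in opposite directions, with r = −0.85 (permutation p = 0.00243, adjusted p = 0.0437) and rho = −0.80 (permutation p = 0.00895, adjusted p = 0.161). Without CTRL replicates 5 and 1 this r was −0.76, and in the 14-month mice it was −0.89. Leaving out each mouse in turn gave r from 0.74 to 0.90 for the first pair and from −0.93 to −0.77 for the second.

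The next pairs did not pass adjustment. These were Pla2g6 and Pla2g12a (r = 0.79, permutation p = 0.00722, adjusted p = 0.0866), and Pla2g4e and Pla2g3 (r = 0.78, permutation p = 0.0145, adjusted p = 0.130). Over the 9 members and 12 marker lists of cell types, 13 of 108 relations had an unadjusted permutation p below 0.05 and none passed adjustment. The closest was Pla2g7 with the mean of the 10 astrocyte markers (r = 0.86, permutation p = 0.00075, adjusted p = 0.0810, rho = 0.85, adjusted p = 0.190). Next by p was Pla2g4a with the red cell markers (r = −0.60, permutation p = 0.0022, adjusted p = 0.119). Pla2g12a had r = −0.81 (permutation p = 0.00505, adjusted p = 0.182) with the excitatory neuron markers. With the same markers, Pla2g15 had r = −0.85 (permutation p = 0.0126, adjusted p = 0.226). With the oligodendrocyte markers, r was −0.78 for Pla2g3 (permutation p = 0.00722, adjusted p = 0.195) and −0.75 for Pla2g4e (permutation p = 0.0186, adjusted p = 0.287). Without CTRL replicate 2 the r of Pla2g4a was −0.48. Without CTRL replicate 3 the r with the excitatory neuron markers was −0.59 for Pla2g12a and −0.57 for Pla2g15.

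**Figure D5:**
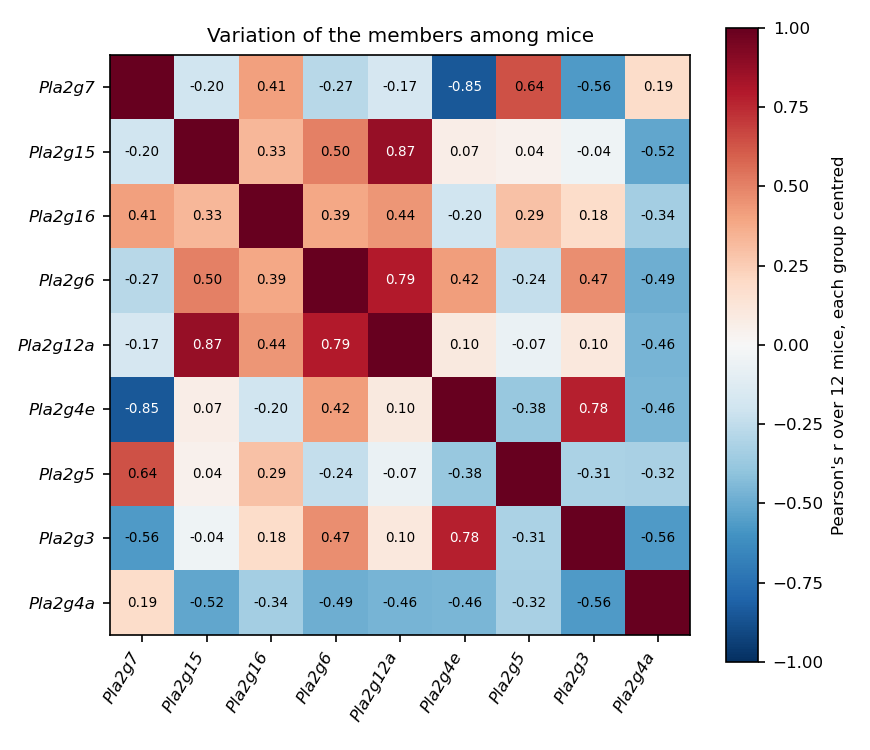
Pearson's r between the members over the 12 mice, with each group centred on its own mean, as a colour scale from −1 to 1 with the values printed. The strongest pairs are Pla2g12a with Pla2g15 at 0.87 and Pla2g4e with Pla2g7 at −0.85.

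The 2 pairs that varied most closely are shown by the 250 bases before their start sites, so that the sequences of the pair that moved together can be read beside those of the pair that moved apart. The sequences are from RefSeq (GRCm38.p6), written 5′ to 3′ along the gene's strand, and capitals mark CCAAT and GGGCGG on either strand, which read ATTGG and CCGCCC on the other strand.
Pla2g12a (chr3:129880934-129881183, plus strand): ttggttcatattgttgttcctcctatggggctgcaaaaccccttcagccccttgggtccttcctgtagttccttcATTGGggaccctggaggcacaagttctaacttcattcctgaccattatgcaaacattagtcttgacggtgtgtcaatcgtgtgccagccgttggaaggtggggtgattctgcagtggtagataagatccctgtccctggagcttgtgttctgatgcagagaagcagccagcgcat
Pla2g15 (chr8:106150104-106150353, plus strand): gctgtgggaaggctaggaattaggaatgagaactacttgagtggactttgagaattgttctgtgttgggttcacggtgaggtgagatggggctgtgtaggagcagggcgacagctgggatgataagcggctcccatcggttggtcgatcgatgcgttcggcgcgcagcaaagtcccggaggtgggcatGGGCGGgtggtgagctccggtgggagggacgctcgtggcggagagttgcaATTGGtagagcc
Pla2g4e (chr2:120245336-120245585, minus strand): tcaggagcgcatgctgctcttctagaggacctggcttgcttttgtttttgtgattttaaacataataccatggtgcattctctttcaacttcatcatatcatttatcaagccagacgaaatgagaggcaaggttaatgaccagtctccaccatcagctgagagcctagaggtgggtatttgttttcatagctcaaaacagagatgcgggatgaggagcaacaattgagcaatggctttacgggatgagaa
Pla2g7 (chr17:43568201-43568450, plus strand): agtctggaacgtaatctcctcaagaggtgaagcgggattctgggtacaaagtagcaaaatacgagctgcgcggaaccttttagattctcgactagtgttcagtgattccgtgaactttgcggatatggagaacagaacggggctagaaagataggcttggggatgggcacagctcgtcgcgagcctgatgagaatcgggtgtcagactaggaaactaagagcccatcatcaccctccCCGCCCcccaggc

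Pla2g12a and Pla2g15 each held 1 CCAAT on the opposite strand, its first printed base 175 and 12 bases before the start, and Pla2g15 also held 1 GGGCGG. Pla2g4e held neither motif and Pla2g7 held 1 GGGCGG on the opposite strand. RefSeq windows of 300 bases (250 before and 50 after a start) were at hand for 8 of the 9 members, some with several starts, and the RefSeq starts of Pla2g12a and Pla2g7 lie inside the GENCODE spans given with these genes. CCAAT stood in a window of 5 of the 8 and GGGCGG in a window of 4. Of all 32851 such windows, 37.4% held CCAAT and 35.7% held GGGCGG. These shares are by window, while the counts of members are by gene over any of its windows, so the units differ. The motifs do not overlap each other in the printed sequences, and a match is a run of letters only.

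The 3 tested genes with the highest centred r over the 12 mice, a description with no test, were Ghdc (0.98), Osbpl7 (0.95) and Cyp27a1 (0.95) for Pla2g15, and Ormdl3, Tfpt and Rit1 (all 0.96) for Pla2g12a. For Pla2g7 they were Lgals9 (0.94), Ftsj3 (0.93) and Rtp4 (0.92). For Pla2g4e they were Chfr (0.96), Ipo9 (0.92) and Phka2 (0.91), and for Pla2g3 Ebf4 (0.96), Ttc7b (0.95) and Kmt2b (0.91). Pla2g6 was closest to Nop16 (0.94), Unc119 (0.94) and Fndc4 (0.93), and Pla2g4a to 9330182L06Rik (0.93), Agmo (0.93) and Ascc3 (0.93). Pla2g5 was closest to Rcbtb2 (0.91), Mro (0.88) and Nostrin (0.87), and Pla2g16 to Cmbl (0.92), Tmsb10 (0.88) and Cxcl14 (0.85).

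Around the 9 members, the pathway was described by 6 lists of 103 genes, of which 88 were tested. By edgeR, 3 of the 88 passed an adjusted p below 0.05, against 1.55% of all genes tested, and 20 had an unadjusted p below 0.05, against 14.5% of all genes tested. Enpp6, a choline phosphodiesterase of myelinating oligodendrocytes that acts on lysophosphatidylcholine, rose by 0.67 on the log2 scale (standard error 0.16, edgeR adjusted p = 0.0450), from 2.97 ± 0.27 (SD, n = 7) to 3.67 ± 0.27 (SD, n = 5) log2 CPM. Of the 10 oligodendrocyte markers, 8 had a positive log2 fold change (median 0.21), 5 had an unadjusted p below 0.05 by edgeR, all positive, and 0 passed the adjusted test. Their part in the rise of Enpp6 was not tested. Ephx1, an epoxide hydrolase that also acts on fatty acid epoxides, fell by 0.37 in log2 units (standard error 0.08, edgeR adjusted p = 0.0403), with all 5 DPAn-6 mice below every CTRL mouse. Pld1, a phospholipase D, fell by 0.45 in log2 units (standard error 0.10, edgeR adjusted p = 0.0412), with no overlap between the groups, which was so for 3.23% of all genes tested. Enpp6 and Ephx1 each kept an adjusted p below 0.05 in 1 of the 12 fits without 1 mouse, the one without CTRL replicate 3, and Pld1 in 3, those without CTRL replicates 3, 4 or 6.

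Among 13 regulators and receptors of the family, 0 passed the adjusted test and 4 had an unadjusted p below 0.05 by edgeR, all with a negative log2 fold change, where 14.5% of all genes tested had such a p in either direction. The 2 with the smallest p were Ptafr, the receptor of platelet-activating factor, with a log2 fold change of −0.52 (standard error 0.15, unadjusted p = 0.00267, adjusted p = 0.0921), and S100a10, the partner of annexin A2 that binds cytosolic phospholipase A2, with −0.31 (standard error 0.09, unadjusted p = 0.00353, adjusted p = 0.103). Of 9 tested genes of the paralogue list, 0 passed, and the smallest unadjusted p was that of Pafah1b3, with a log2 fold change of 0.36 (edgeR unadjusted p = 0.0443), followed by Abhd3 with −0.15 (edgeR unadjusted p = 0.0563). In the 17 genes that put fatty acids back on lysophospholipids, 0 passed, with Mboat2 at −0.21 (edgeR adjusted p = 0.105) and Mboat1 at 0.34 (edgeR adjusted p = 0.221). The medians of the log2 fold changes were −0.12 for the regulators, 0.07 for the paralogues, 0.02 for the reacylation genes, 0.04 for the 14 lysophospholipid breakdown genes, −0.17 for 22 tested oxygenation genes and −0.01 for the 13 other lipases, against 0.00 for all genes tested. Unadjusted p-values below 0.05 by edgeR were found for 7 oxygenation genes and 3 of the other lipases, all with a negative log2 fold change, and for 3 breakdown genes, 1 of them positive, which is 7 of 22, 3 of 13 and 3 of 14 beside the 14.5% of all genes tested. The lower microglia markers and the oligodendrocyte markers of the DPAn-6 mice stand beside these values, and their part in the differences was not tested.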

How the data were processed

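RNA was extracted from the cortex of 12 E4FAD mice and poly(A)-selected KAPA mRNA libraries were sequenced. The authors aligned reads to GRCm38 with STAR (2.5.3a per the submitters' processing notes), counted reads per Ensembl gene and deposited 1 table of raw counts, with no normalization. The annotation here was GENCODE M21. Expression was tested in R 4.3.3 by the quasi-likelihood functions of edgeR 4.0.16 (glmQLFit, glmQLFTest) after TMM scaling, with no covariate, and p-values were adjusted by Benjamini-Hochberg over all 15688 genes that filterByExpr kept. The study's methods name limma-voom, which was run as an alternative (limma 3.58.1), as was DESeq2 1.42.0. Members were also given an exact permutation test, two-sided, on their mean log2 CPM (smallest possible p 0.00126). Correlations used TMM-scaled log2 CPM centred within each group, with 100000 permutations of the mice within groups.

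Groups and ages came from the labels. The members, gene lists and tests were chosen with earlier results of these data known, so no p is given over a list alone. All 9 members were named. Of each pathway list, genes with an adjusted p below 0.05 were named, or otherwise the 2 with the smallest p. Of each cell marker list, genes with an adjusted p below 0.05 were named. For each member, the 3 tested genes with the highest centred r were named, among those with a mean of at least 1 log2 CPM. Ttr, Xist and Gfap were named because they stood beside a result, and some paralogues for their counts or levels. Alternatives were the other tools, limma-voom with sample weights, no TMM factors, no or a stricter low-count filter (1 CPM in 5 libraries), age, Xist or Ttr as covariate, the 14-month mice alone, a block for the replicate number, and fits without 1 mouse at a time. Chosen after seeing the data were a correction for gene length and GC content, with and without the block, replicates 1 to 5 without the block, 12-month mice only, the removal of the 3 libraries with most Ttr, and limma-voom or further covariates in the Xist and age terms. The tests were also run on simulated counts without an outlying library or an imbalance of sex, and the outcome is not given here. Tables were handled with pandas 2.3.3 and scipy 1.17.1.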

Additional observations from a re-analysis of the deposited data

Results flagged for a closer look

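Pla2g5 in CTRL replicate 6 stood apart from the other 6 CTRL mice: its gap to the nearest value was 0.581 of the range of the group, beyond the limit for 7 samples. This was 1 of 18 sets of values examined (9 members in 2 groups), and chance marks about 1 in 20. The library was among the 5 low in Xist. For Pla2g15 and Pla2g3, the interaction of DPAn-6 with age had an unadjusted p of 0.0294 and 0.0497 by edgeR, of 0.0248 and 0.0566 by limma-voom, and an edgeR adjusted p of 0.905 for both. In the 12-month mice, with 2 mice per group, the log2 fold change was −0.36 for Pla2g15 (edgeR unadjusted p = 0.00355) and 0.23 for Pla2g3 (edgeR unadjusted p = 0.382). Treatment and sex cannot be told apart there.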

How the results depend on the processing

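No member passed an adjusted p below 0.05 under any of the 29 alternatives, where the lowest adjusted p was 0.0621, for Pla2g15 in the 12-month mice. Of the 261 member fold changes, 233 kept their direction. The count of members with an unadjusted p below 0.05 was 0 with Ttr as covariate and under each of the 3 fits with the block, 2 in the 14-month mice and 2 by limma-voom with sample weights, and 0 to 2 with 1 mouse left out. For Pla2g4e the p was above 0.05 without CTRL replicate 5 or 6 or DPAn-6 replicate 1, 4 or 5. No pairing of the mice by the replicate numbers shared by the groups was seen. Deviations of same-numbered mice correlated at −0.13 to 0.22, and 0 of 5 DPAn-6 mice correlated best with their own number. With only 5 pairs, a weak pairing could be missed. With the replicate block, Pla2g4e had a log2 fold change of −0.36 (edgeR unadjusted p = 0.0588).

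The main test called 243 genes in all and 3 of the pathway lists. These counts were 709 and 8 in the 12-month mice, 9 and 0 in the 14-month mice, 696 and 9 by DESeq2, 17 and 0 with Ttr as covariate, 551 and 9 after correction for length and GC content, 1267 and 15 by limma-voom with sample weights, and 541 and 7 without the 3 libraries with most Ttr. With the replicate block they were 69 and 0, with block and age 46 and 0, with block and trend removal 179 and 2, and 148 and 0 for the same mice without the block. The pathway count was 1 with age as covariate, without TMM and without a filter. With 1 mouse left out the counts ran from 64 to 953 and from 0 to 12, the highest of each without CTRL replicate 3. The cause was not tested.

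Log2 fold changes that turned direction, none of them called, were in the 12-month mice Pla2g12a −0.22, Pla2g15 −0.36, Pla2g3 0.23, Pla2g4e 0.0094 and Pla2g6 −0.052, and in the 14-month mice Pla2g5 0.073. With Ttr as covariate they were Pla2g15 −0.0014, Pla2g3 0.0020, Pla2g4a −0.12 and Pla2g5 0.011. By limma-voom with sample weights they were Pla2g12a −0.0071, Pla2g15 −0.014, Pla2g5 0.048 and Pla2g6 −0.044. Without the 3 libraries with most Ttr they were Pla2g12a −0.0034, Pla2g15 −0.035, Pla2g4a −0.042, Pla2g5 0.0084 and Pla2g6 −0.012. With 1 mouse left out, Pla2g15 ran from −0.027 to 0.13, Pla2g4a from −0.045 to 0.067 and Pla2g6 from −0.034 to 0.041. Pla2g3, Pla2g5 and Pla2g4a had at most 100 counts per library. Over all 12 mice, their 95% intervals included 0, and differences anywhere within these intervals remain possible.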
